A study of Mus musculus with 4 samples.

Results

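The comparison described here is FoxO loss in starved muscle: the gastrocnemius of starved mice lacking FoxO1, FoxO3 and FoxO4 in skeletal muscle, set against the gastrocnemius of starved control mice. Its members are the genes whose probe set, naming 1 gene, reached the 75th percentile of its array on at least 1 of the 2 starved arrays. That left 10958 of 34945 such probe sets and 7270 of 18193 genes. Control mice carried floxed FoxO1,3,4 alleles (FoxO1,3,4 f/f, called wild type in the labels), and knockout mice (FoxO1,3,4-/-) carried the same alleles with a Cre transgene under the MLC1f promoter. Starved mice of both genotypes had no food for 24 h and water freely, and fed mice of both genotypes (0 h) are used below for comparison. All were males of a mixed C57BL/6N and FVBN background, and mice were used at 2 to 4 months of age. RNA of 6 muscles from 3 mice was pooled in equal amounts for each of the 4 conditions and each pool was hybridized to 1 array. Each group is therefore 1 measurement, no difference below has a replicate check or a test, and precision is limited by the number of arrays. MLC1f drives Cre in fast fibres and not in slow fibres, and endothelial cells, fibroblasts, macrophages and blood cells in the muscle keep their FoxO genes.

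FoxO proteins are forkhead transcription factors that insulin and IGF-1 restrain through AKT, which phosphorylates them and keeps them out of the nucleus. In fasting, when insulin falls, they enter the nucleus and switch on genes for ubiquitin ligases, autophagy and stress resistance. In skeletal muscle this programme is known for driving protein breakdown and fibre atrophy.

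The signals are MAS 5.0 intensities in arbitrary units, multiplied so that every array has the median of the starved control array (26.0). All signals, ratios and log2 ratios below are on that scale, and a ratio is starved knockout over starved control muscle unless stated. Signals of different probe sets are not compared with each other.

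The targeted genes were examined on every probe set. Starved muscle had a Foxo4 signal of 291 in controls and 38.9 in knockouts, 7.48-fold lower, and fed muscle had 294 and 34.2. This probe set passed the filter on the starved control array alone, which fixed its direction in starved muscle. The filter did not use the fed arrays. A dimmer Foxo4 probe set, which did not pass the filter, was at 25 in starved control and 17.5 in starved knockout muscle. The Foxo1 signal was 554 in starved controls against 188 in starved knockouts, and 300.3 against 202 when fed. On its 3 probe sets past the filter it was 2.95-fold, 3.16-fold and 2.82-fold lower in the starved knockout, while another, at 3.8 in starved control and 4.43 in starved knockout muscle, did not pass the filter. The Foxo1 probe set that was 3.16-fold lower passed on the starved control array alone, which fixed its direction in starved muscle. Foxo3 was not lower: its 2 probe sets past the filter had log2 ratios of 0.13 and 0.22, with 478 in starved control and 523 in starved knockout muscle on the brighter probe set. The remaining Foxo3 probe set, at 8.9 and 16.6, did not pass the filter. Where these Foxo3 probe sets lie relative to the floxed sequence was not analysed here, and probes outside it would not register the deletion.

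The arrays differed in transcripts that do not belong to muscle. Of 76 hair follicle genes on the array, 54 had their highest signals on the arrays of fed control and starved knockout muscle, each above both other arrays. Their summed signal was 4622 in fed control, 1576 in starved control, 1613 in fed knockout and 9806 in starved knockout muscle. All 19 keratin-associated genes (Krtap, proteins of the hair shaft) that passed the filter were at least 1.5-fold higher in the starved knockout. Krtap8-1, for example, was at 2.50 in starved control and 857 in starved knockout muscle. Most of these genes passed the filter only through the array where they were high, so their count had to be on that side, and no fold is given against signals near 0. The part of such tissue in other differences was not tested. Epidermis markers summed to 1826, 3378, 4750 and 4108 in fed control, starved control, fed knockout and starved knockout muscle. Muscle fibre markers were bright on all arrays and summed to 198712 in starved control and 231177 in starved knockout muscle. Endothelial (7462 and 6893), macrophage (13338 and 11617), fibroblast and tenocyte (41708 and 44482), and pericyte (22323 and 23440) sums lay close together in starved control and starved knockout muscle, and none of the 56 measured members of these 4 lists was 1.5-fold apart. In a whole muscle, fewer cells of a type and less RNA per cell cannot be told apart.

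**Figure D1:**
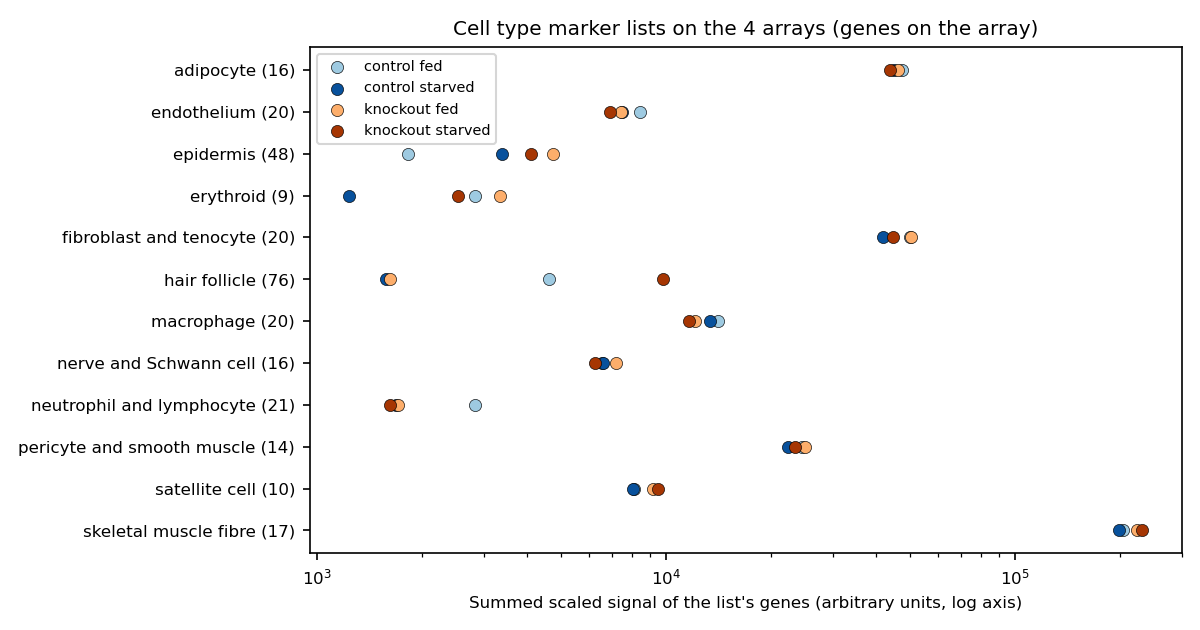
Summed scaled signal of 12 lists of cell type markers (x axis, arbitrary units on a log axis), with each point 1 array. The hair follicle sum is high on the fed control (4622) and starved knockout (9806) arrays and low on the other arrays, whereas the sums of muscle fibre, endothelium and fibroblast lie close together.

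Among the 7270 genes, 466 (6.41%) had a signal at least 1.5-fold higher in starved knockout muscle and 400 (5.50%) a signal at least 1.5-fold lower. The threshold of 1.5-fold is that used in the study. Counts of list members below are to be read against these shares of all genes. Without hair follicle, epidermis and Krtap genes 436 were higher and the same 400 lower, a setting chosen after the data were seen. At 2-fold, 148 were higher and 128 lower. The median log2 ratio over all genes was 0.03, with quartiles at -0.19 and 0.24. The split depends on scaling: on the signals as deposited, which lower the median log2 ratio by 0.18, 257 genes were higher and 809 lower, or 24.1% of calls higher against 53.8% after scaling. Of the probe sets compared, 9773 passed the filter on both arrays, 585 on the control array alone and 600 on the knockout array alone. A probe set that passed on 1 array alone, with a signal under 136 on the other, had its direction fixed by the filter. With the filter required on both arrays, 316 genes were higher and 292 lower. Several probe sets covered 143 of the lower genes, and in 135 of these all lay on the same side of 1, and in 92 all were past 1.5-fold. For the higher genes with several probe sets (124) these counts were 119 and 74. The SD of a log2 ratio between probe sets of the same gene was 0.25 for dim genes (mean signal up to 257), 0.19 for genes of middle signal and 0.17 for bright genes (from 627). This scatter holds no difference between mice.

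**Figure D2:**
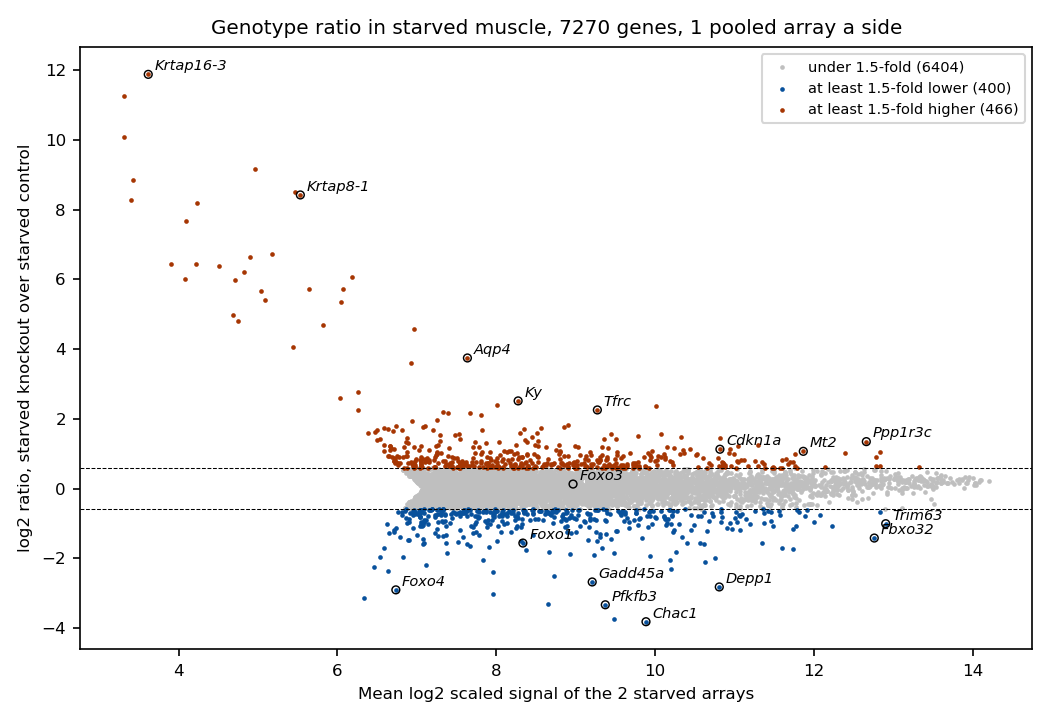
Log2 ratio of starved knockout over starved control (y axis) against the mean log2 scaled signal of both starved arrays (x axis), 1 point per gene, with dashed lines at 1.5-fold. The cloud of 6404 genes under 1.5-fold is grey, 400 lower genes are blue and 466 higher genes red, and the genes at the upper left with low mean signals are mostly Krtap genes.

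The lowest ratios of the comparison were those of Chac1, Ctxn3 and Pfkfb3. Chac1, which encodes an enzyme that degrades glutathione and is a known target of the stress factor ATF4, was at 797 in fed control, 3547 in starved control, 341 in fed knockout and 252 in starved knockout muscle. It was 14.1-fold lower in the starved knockout, and its signal there was also below that of fed control muscle. Ctxn3, a small membrane protein of the cortexin family, had signals of 681, 2617, 132 and 197 in the same order and was 13.3-fold lower. Pfkfb3, a regulator of glycolytic flux, stood at 1286, 2102, 392 and 209, with the starved knockout 10.1-fold below the starved control. In these 3 genes both knockout arrays lay below both control arrays.

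Depp1, a known FoxO target first described in the decidua, showed another pattern. It was at 232 in fed control and 218 in fed knockout muscle, and at 4761 in starved control against 674 in starved knockout muscle, 7.06-fold lower. Gadd45a, a growth-arrest and DNA-damage protein, was at 259 in fed control and 193 in fed knockout muscle, and at 1494 in starved control and 234 in starved knockout muscle (6.39-fold lower). For Depp1 and Gadd45a the starved control array stood apart from the other arrays, whereas the fed genotypes lay within 1.5-fold of each other. Sesn1, a sestrin that restrains mTORC1, had the same order, with 456, 357, 2377 and 575 in fed control, fed knockout, starved control and starved knockout muscle (4.13-fold lower when starved). Rgs2, which shortens signalling by G proteins, was at 1013 in starved control and 178 in starved knockout muscle, 5.69-fold lower, with log2 ratios from -2.87 to -2.40 on 3 probe sets. Pttg1, the securin that holds back chromatid separation until anaphase, differed from these: it was at 1424, 1266 and 2055 in fed control, starved control and fed knockout muscle and at 127 in the starved knockout alone (9.99-fold lower, and low on both of its probe sets). Pttg1 passed the filter on the starved control array alone, which fixed its direction.

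Transporters of peptides and amino acids were among the same 20 genes. Slc15a2, a peptide transporter, was at 240.3 in starved control and 27.1 in starved knockout muscle, a signal close to the array median and 8.86-fold lower. Slc15a2 passed the filter on the starved control array alone, which fixed its direction. Slc7a2, which carries cationic amino acids, was at 502 and 551 in fed control and knockout and at 3459.9 and 867 in starved control and knockout muscle (3.99-fold lower). The neutral amino acid transporter Slc43a1 was at 465 and 112 in starved control and knockout muscle (4.16-fold lower), and its probe set also passed on the starved control array alone. Among 13 amino acid transporters measured, 5 were lower and 1, the glutamine transporter Slc38a3 (190.4 in starved control and 369 in starved knockout), was higher. Their median log2 ratio was -0.11. When a gene had to pass the filter on both starved arrays, 9 were measured, 2 were lower and the median was 0.20, so 3 of the 5 lower calls were of genes that passed on the control array alone.

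Several genes of this group were low in fed knockout muscle too. Actc1, the cardiac form of alpha-actin, had signals of 4987 and 3289 in fed and starved control and, in the same order, of 814 and 766 in knockout muscle. Tspan8, a tetraspanin, was at 2282 and 2616 in control and at 683 and 531 in knockout muscle. In both genes the 2 knockout signals lay below the 2 control signals, with 1 array per group. The phosphatase Dusp26 (log2 ratio -2.20 when starved and -1.82 when fed), the opposite-strand transcript Plet1os (-1.96 and -2.33) and the TNF receptor family member Tnfrsf19 (-2.36 and -1.23) had the same order. The zinc finger genes Zfp932 (-3.02 when starved) and Zfp612 (-1.95) and the adhesion molecule Flrt1 (-2.25) complete the 20 genes with the lowest ratios, together with Foxo4.

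**Figure D3:**
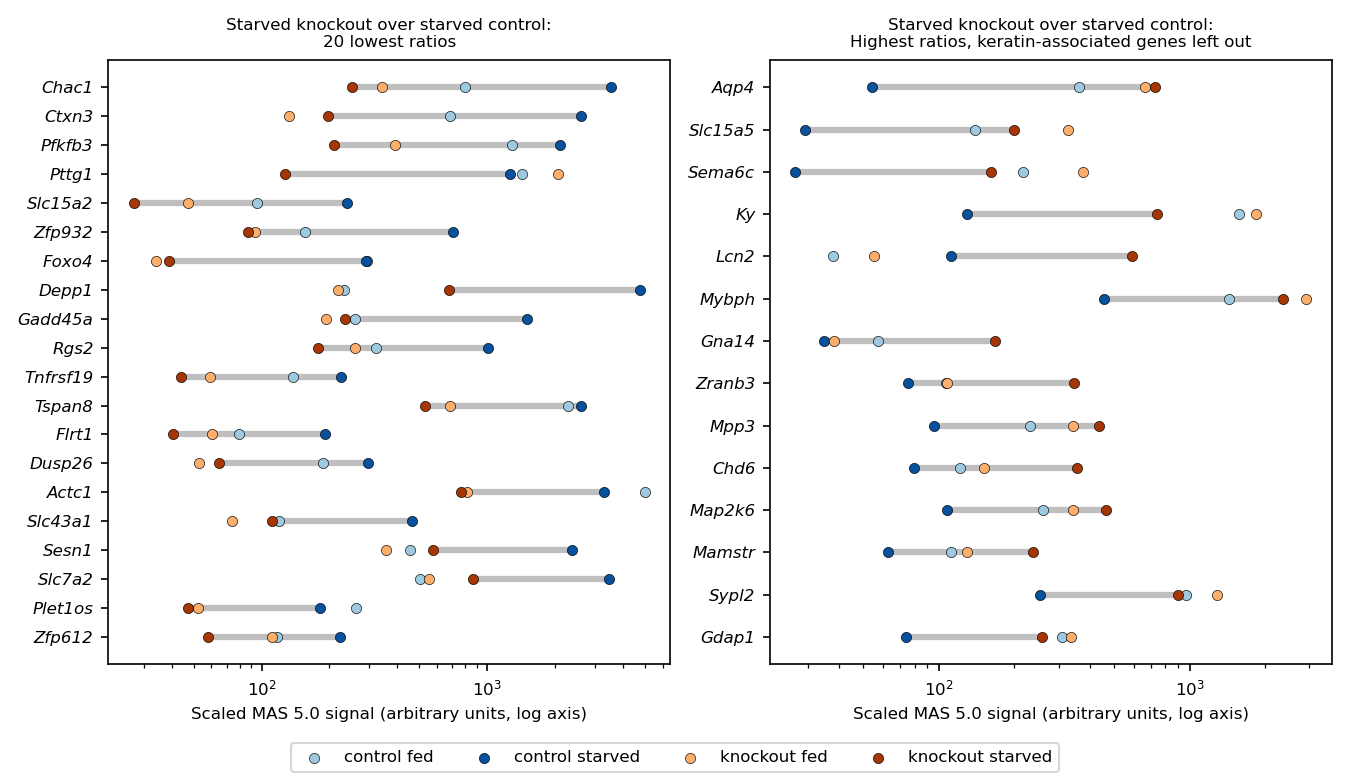
Scaled signal on each of the 4 arrays (x axis, arbitrary units on a log axis) for the 20 genes with the lowest ratios and the 14 with the highest ratios once Krtap genes are left out, with a grey bar from starved control to starved knockout. For Depp1 and Gadd45a the starved control point stands apart from the other points, for Actc1 and Tspan8 both knockout points lie below both control points, and Pttg1 is low in the starved knockout alone.

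Among the ubiquitin ligases of muscle, a few members were lower in starved knockout muscle and the list as a whole had the median of all genes. Fbxo32, the muscle ubiquitin ligase atrogin-1, was at 11326 in starved controls and 4241 in starved knockouts (2.67-fold lower), against 2457 and 1796 in the fed mice. Trim63, the ligase MuRF1 that marks sarcomere proteins for degradation, was at 10853 and 5403 in starved controls and knockouts (2.01-fold lower) and at 4414 and 3835 in fed ones. In both ligases the starved knockout lay between the fed and the starved control. Fbxo30, the ligase MUSA1, was at 432 in starved control and 134 in starved knockout muscle (3.22-fold lower), although its 3 probe sets ranged in log2 ratio from -1.69 to -0.39. The probe set given for Fbxo30 passed the filter on the starved control array alone, which fixed its direction. With the filter on both starved arrays Fbxo30 was not past 1.5-fold, and of 24 muscle ligases measured 2 were lower and 1 higher. With Mib1, a ligase of the Notch pathway, higher at 491 and 917 in starved control and knockout, 3 of 25 muscle ligases measured were lower and 1 was higher, with a median log2 ratio of 0.03, the value of all genes. Of 26 other ubiquitin enzymes, 3 were lower (Ube4a, -1.10, Ube2d1, -0.65, and Nploc4, -0.64, as log2 ratios) and 1 higher (the deubiquitinase Usp2, 0.60). The shares of these enzymes were 11.5% lower and 3.85% higher, against 5.50% and 6.41% of all genes. Proteasome subunits lay close to 1 and mostly below it: 29 of 35 had a ratio below 1, the median log2 ratio was -0.23, and Psma1, a subunit of the core ring (3429 in starved control and 2199 in starved knockout, 1.56-fold lower), was past 1.5-fold. The count rests on the settings: 7 of the 35 subunits were lower on signals as deposited (median -0.41) and 3 with the median over a gene's probe sets. On signals as deposited 5 of the 25 muscle ligases and 6 of the 26 other enzymes were lower.

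Autophagy genes, which build and fill the vesicle that delivers cytoplasm to the lysosome, lay in both directions: 11 of 39 were lower and 5 higher, or 17 and 2 on signals as deposited. Gabarapl1, an ATG8-family protein of the vesicle membrane, had signals of 619 and 2593 in fed and starved control and, in the same order, of 527 and 879 in knockout muscle (2.95-fold lower when starved). Ulk1, the kinase that starts autophagy, was at 1146 in starved control and 422 in starved knockout muscle (2.71-fold lower), a level near that of fed control muscle (419.7). Its partner Rb1cc1 (-1.11) and the phosphoinositide-binding protein Zfyve1 (-1.14) followed as log2 ratios. The higher members were led by Pink1, the kinase that marks damaged mitochondria, at 3050.0, 1618, 2923 and 3882 in fed control, starved control, fed knockout and starved knockout muscle (2.40-fold higher when starved). Atg4a, a protease that processes ATG8 proteins (0.91), Trp53inp2 (0.77) and Atg101 (0.72) were higher as well. In these higher genes the starved control array was the lowest of the 4. In the lysosome list 3 of 26 were lower (5 on signals as deposited) and none higher: the cholesterol exporter Npc1 (766 in starved control and 216 in starved knockout, 3.54-fold lower), the protease cathepsin L, Ctsl (6927 and 3287, 2.11-fold lower), and Gaa, which breaks down glycogen (-0.69 as log2 ratio). These 3 are 11.5% of the list, against 5.50% of all genes lower.

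Atrophy-related genes (atrogenes) that the study names were mostly below 1: of 29 measured, 15 were lower, none was higher and the median log2 ratio was -0.60. The study chose part of them from these samples, so the direction of the list is no independent evidence. Besides Pfkfb3 and Gadd45a, its lowest ratios were those of Ampd3 and Eif4ebp1. Ampd3, an AMP deaminase, was at 299, 931, 269.6 and 253 in fed control, starved control, fed knockout and starved knockout muscle (3.68-fold lower when starved). Eif4ebp1, a repressor of translation that mTOR inactivates, was at 5621 in starved control and 1711 in starved knockout muscle (3.28-fold lower). Among 34 known FoxO targets outside proteolysis, 15 were lower and 3 higher, with a median of -0.48. Their lowest were Depp1, Gadd45a, Sesn1 and Eif4ebp1, named above. The higher members were the cell cycle inhibitor Cdkn1a (1218 in starved control and 2665 in starved knockout, 2.19-fold higher), the glucocorticoid receptor chaperone Fkbp5 (1372 and 2779, 2.03-fold higher) and the phosphatase G6pc3 (0.62 as log2 ratio).

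The forkhead core sequence GTAAACA was sought on either strand in promoter windows of RefSeq (build GRCm38.p6), from 250 bases before to 50 bases after each annotated start. A window was found for 316 of 400 lower genes, and 24 of these (7.59%) held a match. The share was 1.08% (4 of 372) among higher genes, 3.30% among all 5941 compared genes with a window and 4.05% among all 27025 genes of the table. These shares are descriptions, a match is not a binding site, and base composition was not matched. The stretches below show a match in lower genes, with the match in capitals (GTAAACA, or TGTTTAC where it lies on the opposite strand) and 5′ to 3′ on the gene's strand. Tspan8 and Trim63 are the named lower genes with a match before the start. Tmem140, Pim1 and Eda2r were added, after their values were seen, as the next in order of ratio.
Tspan8, chr10:115817231-115817283, plus strand: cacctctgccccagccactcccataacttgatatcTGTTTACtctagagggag
Trim63, chr4:134314891-134314967, plus strand: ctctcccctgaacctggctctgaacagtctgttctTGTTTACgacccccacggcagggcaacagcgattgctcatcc
Tmem140, chr6:34862995-34863071, plus strand: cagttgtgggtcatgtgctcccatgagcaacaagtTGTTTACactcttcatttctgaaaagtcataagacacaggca
Pim1, chr17:29492980-29493056, plus strand: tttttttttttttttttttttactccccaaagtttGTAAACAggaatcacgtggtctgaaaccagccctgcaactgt
Eda2r, chrX:97377293-97377369, minus strand: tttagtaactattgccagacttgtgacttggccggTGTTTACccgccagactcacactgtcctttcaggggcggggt
The match begins 18 bases before the start in Tspan8, 194 in Trim63, 116 in Tmem140, 70 in Pim1 and 125 in Eda2r. Tmem140, a membrane protein, was at 1916 in starved control and 498 in starved knockout muscle. The kinase gene Pim1 was at 311 and 107, and Eda2r, a TNF receptor family member, at 733 and 309 in the same order. The probe set of Pim1 passed the filter on the starved control array alone, which fixed its direction.

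In the insulin, IGF and mTOR pathway, whose kinase AKT holds FoxO back, 10 of 37 genes were lower and 4 higher (12 and 2 on signals as deposited). The insulin receptor substrates were among the lower: Irs2 was at 434 in starved control and 154 in starved knockout muscle (2.82-fold lower) and Irs1 at 1492 and 557 (2.68-fold lower). Castor2, a relative of the arginine sensor of mTORC1, was lower in both feeding states (log2 ratio -1.09 starved and -1.19 fed). Higher were the phosphoinositide kinase subunit Pik3r1 (777 and 1382 in starved control and knockout, 1.78-fold higher), the receptor adaptor Grb14 (0.95 as log2 ratio), the IGF-binding protein Igfbp5 (0.76) and the Rag GTPase Rragd (0.69). Eef2k, the kinase that slows translation elongation, was also higher, at 628 in starved control and 1851 in starved knockout muscle (2.95-fold). In the myostatin and SMAD list of 23 genes, the corepressor Tgif1 was lower (308 and 118 in starved control and knockout) and the signal mediator Smad3 higher (307 and 653). Tgif1 passed the filter on the starved control array alone, which fixed its direction. With the filter on both starved arrays 20 genes of this list were measured, 1 was higher and none lower.

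Immediate early genes, which are switched on within minutes of a stimulus, had the largest share of lower calls among the lists of 5 or more members: 13 of 18 were lower, all 18 had a ratio below 1 and the median log2 ratio was -0.79. Fos was at 405 in fed control, 1158 in starved control, 738 in fed knockout and 312 in starved knockout muscle (3.71-fold lower when starved). Maff, a small MAF factor, was at 316 and 87.5 in starved control and knockout (3.61-fold lower), Egr1 at 1023 and 388 (2.64-fold lower) and Btg2 at 1109 and 475 (2.33-fold lower). Some lower calls, that of Maff among them, were of genes that passed the filter on the starved control array alone, which fixed their direction. With the filter on both starved arrays 14 genes were measured, 9 were lower and the median log2 ratio was -0.64. In fed muscle the median of the same list was 0.02, with 1 gene lower and 1 higher, and the difference between the fed and starved medians was not tested.

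Glucocorticoids rise in fasting and act on muscle together with FoxO, and the genes they induce were split: 9 of 25 were lower and 5 higher. Lower were the alpha-arrestins Arrdc3 (2321 in starved control and 652 in starved knockout) and Arrdc2 (787 and 333), and the transcription factors Cebpd (6205 and 1862) and Klf15 (939.5 and 396). Higher were Lcn2, a protein that binds iron-carrying siderophores (112 in starved control and 591 in starved knockout, 5.30-fold higher), Cdkn1a, the metallothionein Mt2 (2575 and 5403, 2.10-fold higher) and Fkbp5. Of these genes Cdkn1a was past 1.5-fold between the fed genotypes too (log2 ratio 0.66), and the others were not. All of them, lower and higher, had a larger signal in starved than in fed control muscle, so that the higher ones stood highest of all in the starved knockout. Lcn2 passed the filter on the starved knockout array alone, which fixed its direction. With the filter on both starved arrays 24 genes of this list were measured, 9 were lower and 4 higher. Lcn2 is also in the neutrophil and lymphocyte marker list, where 1 of 3 measured members was higher and 1 lower.

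Stress and antioxidant genes were lower in part. Of 32 ATF4 targets and genes of the stressed endoplasmic reticulum, 4 were lower (7 on signals as deposited) and none higher: Chac1, the phosphatase subunit Ppp1r15a (-1.10 as log2 ratio), the transcription factor Atf3 (-0.77) and Edem1 (-0.66), which sends misfolded proteins to degradation. Of 30 NRF2 and glutathione genes, 6 were lower (11 on signals as deposited) and none higher. Gclm, a subunit of the enzyme that limits glutathione synthesis, was at 956 in starved control and 342 in starved knockout muscle (2.80-fold lower), the sulfiredoxin Srxn1 at 347 and 139 (2.50-fold lower) and the secreted peroxidase Gpx3 at 1826 and 795 (2.30-fold lower). Glutathione reductase, Gsr, had a log2 ratio of -0.74, but its other probe set gave -0.18. Cell cycle inhibitors split as well, with 6 of 18 lower, among them Cdkn1b (1619 and 782 in starved control and knockout), the pocket protein Rbl2 (-1.06 as log2 ratio) and Cdkn1c (-0.89), and 2 higher (Cdkn1a and G0s2, an inhibitor of lipolysis, 0.82).

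The highest ratio outside the hair genes was that of Aqp4. Aqp4, the water channel held at the fibre surface by the dystrophin complex, was at 363 in fed control, 54.3 in starved control, 663 in fed knockout and 729 in starved knockout muscle. The starved knockout was 13.4-fold above the starved control on this probe set and 3.56 above it on the log2 scale on the other. Ky, a protein associated with the Z-disc and needed for muscle growth, was at 1578, 129.5, 1836 and 740.5 in the same order (5.72-fold higher when starved). Both were within 2-fold between the fed genotypes, and in both the starved control was the lowest array. Ky in the starved knockout nevertheless lay below both fed arrays, whereas Aqp4 lay above them. Both signals in starved control were under the cut of 136.3. These probe sets therefore passed the filter on the starved knockout array alone, which fixed the direction of their ratios.

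Mybph, a myosin-binding protein, had signals of 1430.5 and 454 in fed and starved control and, in the same order, of 2922 and 2355 in knockout muscle (5.19-fold higher when starved). The guidance molecule Sema6c was at 217, 26.8, 374 and 161 in the same order, and Slc15a5, a solute carrier, at 139, 29.3, 328 and 199. In the starved control both were near the array median. These 3 genes were higher in the knockout in both feeding states. Sypl2, a synaptophysin-like protein of the triad, was at 254 in starved control and 898 in starved knockout muscle (3.54-fold higher), close to its fed control signal of 969.9. Gdap1, a protein of the outer mitochondrial membrane (73.7 and 258 in starved control and knockout), the kinase Map2k6, which activates p38 (108 and 463), and Mamstr, a coactivator of MEF2 (62.7 and 238), were higher too. The scaffold gene Mpp3 (2.18 as log2 ratio), the helicase Zranb3 (2.21), the chromatin remodeller Chd6 (2.16) and the G protein subunit Gna14 (2.27, from 34.8 to 167) were higher on 1 probe set each. The probe sets given for Sema6c, Slc15a5, Gdap1, Map2k6, Mamstr and Gna14 passed the filter on the starved knockout array alone. Their direction was therefore fixed by the filter. Tfrc, the transferrin receptor that brings iron into cells, was at 1687, 283, 2217 and 1351 in fed control, starved control, fed knockout and starved knockout muscle (4.78-fold higher when starved). It is also an erythroid marker, and the erythroid markers summed to 1237 in starved control and 2534 in starved knockout muscle, a sum that holds Tfrc itself. The 6 other genes among the 20 highest were Krtap19-2, Krtap22-2, Krtap6-5, Krtap4-6, Krtap4-1 and Krtap19-9b, which share the pattern of the hair follicle list.

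Most gene lists of muscle structure held more higher than lower calls. Of 11 cardiac and developmental sarcomere genes, in contrast, 1 was higher and 2 were lower (median log2 ratio -0.02). In the dystrophin complex list 5 of 13 were higher and none lower (median log2 ratio 0.41, and 3 of 11 higher with the filter on both arrays), with Aqp4, the syntrophin Sntb1 (1.22), caveolin Cav3 (1.19) and dystrobrevin Dtna (0.99) in the lead. In the calcium handling list 6 of 26 were higher and 1 lower (median 0.38). Jph2, which holds the triad membranes together, was at 1182, 513, 1147 and 1054 in fed control, starved control, fed knockout and starved knockout muscle (2.05-fold higher when starved). Stac3, a partner of the calcium channel, was at 1453 and 2881 in starved control and knockout (1.98-fold higher), and Casq1, the calcium-binding protein of fast fibres, at 5135 and 9557 (1.86-fold higher). Sln, sarcolipin, an inhibitor of the calcium pump, was the lower member (279 and 163). For Jph2, Stac3 and Casq1 the starved control array was low and the other arrays lay close together.

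In the neuromuscular junction list 4 of 12 were higher and none lower, among them Sh3kbp1 (0.89 as log2 ratio), Dok7 (0.81), an adaptor of the receptor kinase MuSK, and the acetylcholine receptor subunit Chrna1 (0.63). Of the 12, 5 passed the filter on 1 starved array alone, and with the filter on both arrays 2 of 7 were higher and the median log2 ratio was 0.19 in place of 0.31. In the Z-disc list 4 of 26 were higher (2 on signals as deposited) and none lower, with Synpo2l at 764 in starved control and 2149 in starved knockout muscle, Smyd1 (0.64 as log2 ratio) and Synpo2 (0.59) after Ky. All 22 fast fibre genes had ratios above 1 (median 0.26) and 3 were higher. The uniform direction rests on the scaling. The lowest of these log2 ratios, 0.16, is smaller than the 0.18 by which signals as deposited shift the median of all genes. The list median was 0.08 on signals as deposited and 0.11 after quantile normalization. Of 17 slow fibre genes 2 were higher (11.8%) and 1 was lower (5.88%), against 6.41% and 5.50% of all genes. Of 15 myogenic and MEF2 factors 3 were higher: Myod1 (100.1 in starved control and 238 in starved knockout), Mef2c (1868 and 3223) and Eya1 (0.64 as log2 ratio). Myod1 passed the filter on the starved knockout array alone, which fixed its direction. With the filter on both starved arrays 2 of 13 of these factors were higher. Of 28 chaperones 3 were higher (10.7%, against 6.41% of all genes), led by Hspb3 (1.02) and Hspb2 (0.85), small heat shock proteins found in muscle.

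Among the metabolic lists, that of glucose uptake and glycogen held the highest share of higher calls. Of 23 genes of glucose uptake and glycogen, 8 were higher and 2 lower (median 0.46). Stbd1, which anchors glycogen to membranes, was at 447, 249, 860.3 and 851 in fed control, starved control, fed knockout and starved knockout muscle (3.41-fold higher when starved). Fbp2, the muscle fructose bisphosphatase, was at 416, 1088, 744 and 2966 in the same order (2.73-fold higher). In both, the knockout was above the control in either feeding state. Ppp1r3c, which targets a phosphatase to glycogen, was at 4188, 4053 and 4685 on the first 3 of these arrays and at 10315 in the starved knockout (2.55-fold higher), which stood apart. Of the paired regulators of glucose transporter traffic, Tbc1d1 was higher (165 in starved control and 419.7 in starved knockout) and Tbc1d4 lower (326 and 191). In glycolysis 4 of 29 were higher, which were the lactate exporter Slc16a3 (1.56 as log2 ratio), Gpd1 (0.94), hexokinase Hk2 (0.66) and Pgam2 (0.61), and 2 lower (Pfkfb3 and the lactate carrier Slc16a1, -0.78). On signals as deposited this balance turned to 2 higher and 5 lower, and Hk2 and Pgam2 were no longer past 1.5-fold. After scaling the shares of the glycolysis list were 13.8% higher and 6.9% lower, against 6.41% and 5.50% of all genes.

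PPAR targets and fatty acid oxidation genes passed 1.5-fold at about the share of all genes. Of 40 measured, 3 (7.5%) were higher and 2 (5%) lower, against 6.41% and 5.50% of all genes (3 and 5 on signals as deposited). The highest were the lipid droplet protein Plin5 (271, 691, 265 and 1448 in fed control, starved control, fed knockout and starved knockout muscle) and the coactivator Ppargc1b (1.04 as log2 ratio). Lower genes of other lipid lists included the triglyceride lipase Pnpla2 (2904 in starved control and 1508 in starved knockout). Among them was also Fdft1, the squalene synthase (2723 and 908, 3.00-fold lower). Odc1, which makes the polyamine putrescine, was at 4470.5 and 1512 (2.96-fold lower).

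The lists of oxidative phosphorylation and of cytosolic ribosomal proteins held no call. All but 1 of 70 oxidative phosphorylation genes had a ratio above 1, yet none reached 1.5-fold and the median was 0.25 (0.06 on signals as deposited). For 40 cytosolic ribosomal proteins the median was 0.08, with none past 1.5-fold, and it turned to -0.04 after quantile normalization and -0.11 on signals as deposited. Rpl22 was at 8828 in starved control and 8860.0 in starved knockout muscle. Of 74 mitochondrial ribosomal proteins 3 were past 1.5-fold upward (Mrpl48, 0.71, Mrpl45, 0.70, and Mrps16, 0.65, as log2 ratios), or 4.05% against 6.41% of all genes. On signals as deposited none of them was, 2 other members were lower, and the list median went from 0.13 to -0.05. Of 35 collagens and matrix proteins 1 was higher, the matricellular protein Thbs1 (195 in starved control and 314 in starved knockout muscle).

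**Figure D4:**
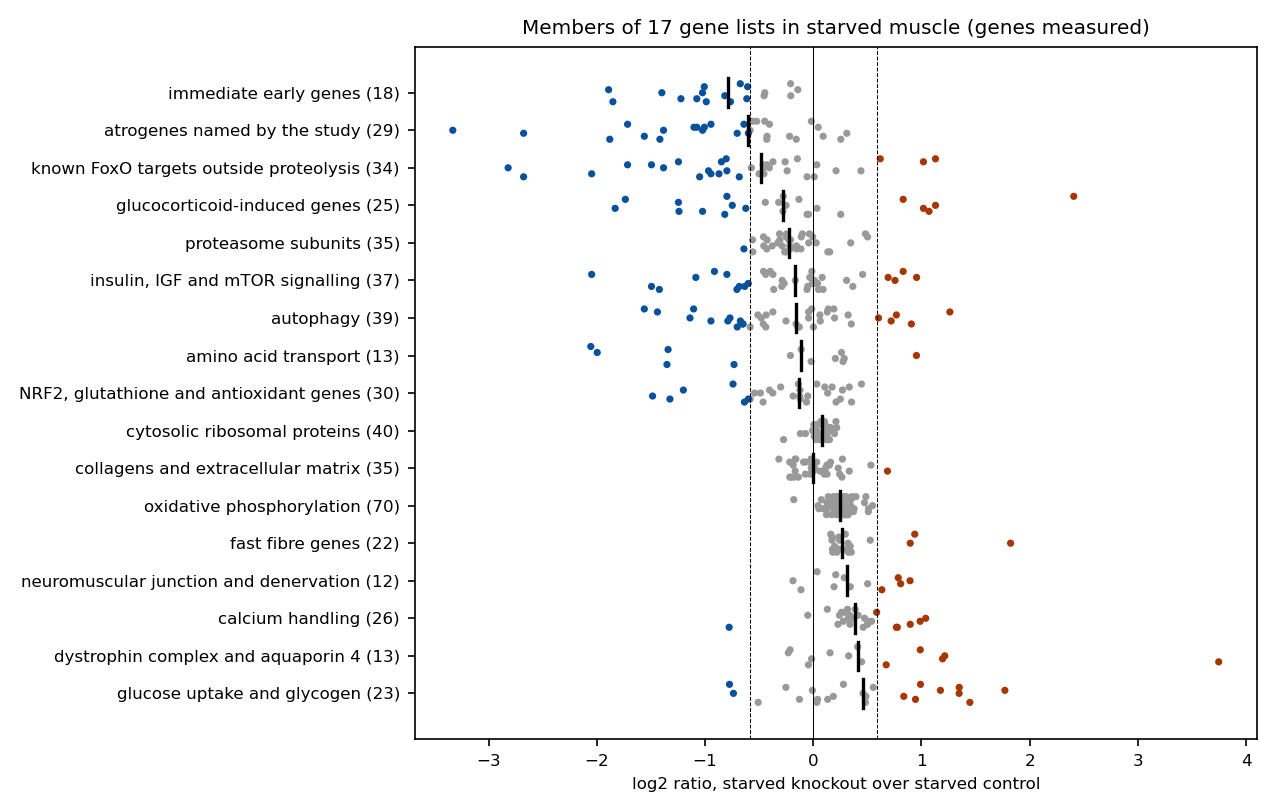
Log2 ratio of starved knockout over starved control (x axis) for the members of 17 gene lists (rows, with the number measured), with black ticks at list medians, dashed lines at 1.5-fold, lower genes blue and higher genes red. Immediate early genes lie wholly below 0 (median -0.79), oxidative phosphorylation genes are packed around 0.25 with no call, and the glucose and glycogen list reaches from -0.77 to 1.77.

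Fed muscle gives a comparison of the same genotypes on arrays that the starved ratio does not use. On the same 7270 genes, 70 (0.963%) were at least 1.5-fold higher and 170 (2.34%) at least 1.5-fold lower in fed knockout than in fed control muscle. When the filter was set on the fed arrays instead, 78 (1.08%) of 7195 genes were higher and 152 (2.11%) lower. The middle of the ratios was also narrower when fed, with quartiles of the log2 ratio at -0.17 and 0.08. Of 400 genes lower in starved knockout muscle, 64 (16.0%) were also lower when fed, against 2.34% of all genes, and 2 were higher. Of 466 genes higher when starved, 34 (7.30%) were also higher when fed, against 0.963% of all genes. Another 34 (7.30%) were lower when fed, against 2.34% of all genes, and 18 of these were Krtap genes. The genes lower in both states included Ctxn3, Pfkfb3, Chac1, Slc15a2, Tspan8, Actc1 and Foxo4, and those higher in both included Aqp4, Slc15a5, Sema6c, Mybph, Stbd1 and Fbp2. Without hair follicle, epidermis and Krtap genes, 323 of 400 lower genes (80.8%) had a fed ratio below 1, against 60.0% of all genes, and 320 of 436 higher genes (73.4%) a fed ratio above 1, against 40.0% of all genes. The other 334 lower and 398 higher genes were within 1.5-fold between the fed genotypes. Across all genes Spearman's rho between the starved and the fed log2 ratio was 0.31 and Pearson's r was -0.25. Without the 40 hair follicle, epidermis and Krtap genes, r over 7230 genes was 0.31 and rho 0.32. Genes are not independent replicates, and whether the starved and fed differences differ from each other was not tested.

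**Figure D5:**
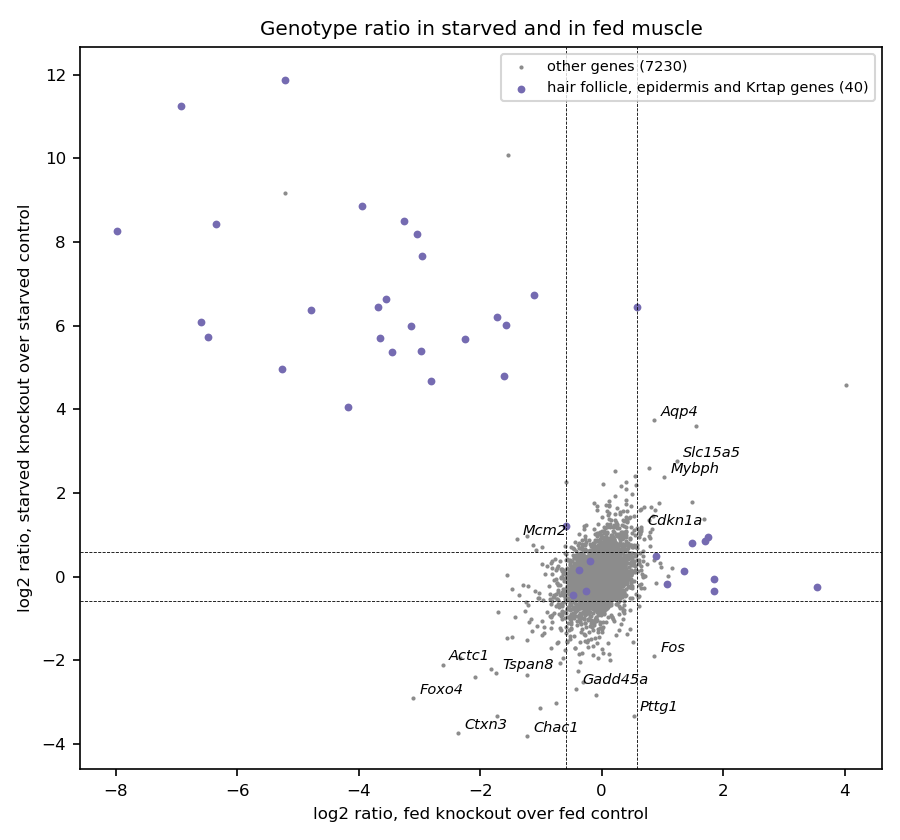
Log2 ratio of knockout over control in starved muscle (y axis) against the same ratio in fed muscle (x axis), 1 point per gene, with dashed lines at 1.5-fold. The 40 hair follicle, epidermis and Krtap genes are purple and mostly at the upper left, high in the starved and low in the fed knockout, while genes such as Foxo4, Ctxn3 and Actc1 at the lower left are low in both states.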

How the data were processed

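Per the labels and the study's methods, each of the 4 conditions was measured on 1 Affymetrix mouse expression array, with a pool of RNA from 6 muscles (3 mice). The authors deposited linear signal intensities from the MAS 5.0 algorithm. Affymetrix Expression Console is also named in the submitters' processing notes. Scaling target, detection calls and genome build: not given in the sources used here.

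From the deposited intensities, arrays were scaled to the median of the starved control array over 45037 probe sets (64 Affymetrix controls left out), since medians as deposited ran from 22.9 to 26.3. For logarithms, 0.1 replaced any signal listed at 0. Genes were named from the platform annotation, in which 34945 probe sets have 1 gene, 932 several and 9160 none listed, with symbols updated through RefSeq (GRCm38.p6) for 34741. Probe sets reaching the 75th percentile of at least 1 starved array were kept, and a gene was represented by the kept probe set with the highest mean signal over the 4 arrays. Ratios of signals were called at 1.5-fold. With 1 array per group there is no p-value or SD between samples. Calling was tested on simulated data with known changes.

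The members and the 61 gene lists, 12 of them cell type markers, were chosen with earlier results of these data known. Genes were named by rule: Foxo1, Foxo3 and Foxo4, the 20 lowest and 20 highest ratios among genes with no clone name, outside the hair follicle, epidermis and erythroid lists, whose kept probe sets all lay on the same side of 1, and up to 4 lowest and 4 highest called members of each list (up to 3 members for marker lists or lists without a call). Eda2r, Pim1 and Tmem140 were added for their promoters, and genes shared with fed muscle are those already named. List symbols were updated through RefSeq synonyms in 28 cases. Alternatives were array scaling, the filter, an offset of 32, the probe set of a gene, the fold threshold and leaving out skin genes. Python 3.11.15, numpy 2.4.6, pandas 2.3.3 and matplotlib 3.10.9 were used.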

Additional observations from a re-analysis of the deposited data

Results flagged for a closer look

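Fos, Mcm2 and the hair follicle list were past 1.5-fold in opposite directions in starved and fed muscle, and in none was the difference between the feeding states tested. Fos had a log2 ratio of knockout over control of -1.89 in starved and 0.86 in fed muscle. Mcm2, a subunit of the replicative helicase, had 0.91 in starved and -1.40 in fed muscle, from signals between 72.6 and 191.7. Mcm2 passed the filter on the starved knockout array alone, which fixed its direction in starved muscle. The summed signal of 76 hair follicle genes had a log2 ratio of 2.64 in starved and -1.52 in fed muscle, which follows its high values on the fed control and starved knockout arrays.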

How the results depend on the processing

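The counts were 466 genes higher, 400 lower, 34 higher in both feeding states and 64 lower in both. In the same order they were 257, 809, 20 and 144 on signals as deposited, 1181, 949, 191 and 171 with the filter at the 50th percentile, and 148, 128, 6 and 18 at 2-fold. With the 75th percentile required on both starved arrays the counts in both feeding states were 18 and 41. Under quantile normalization, a 2% trimmed mean, an offset of 32, other choices of a gene's probe set and without skin genes all counts were within 1.5 times. Of the list medians and named genes past 1.5-fold, 3 changed sign: the hair follicle median was -0.13 with the filter on both arrays, where 2 members remained, the erythroid median -0.61 with the 50th percentile, and the haemoglobin gene Hbb-b2, on whose probe sets near-identical copies may share signal, 0.97 on its brighter fed control probe set. Of 57 list medians under 1.5-fold, 17 changed sign on signals as deposited, 4 after quantile normalization, 5 with the filter at the 50th percentile, 2 with the filter on both arrays and 5 with the median over probe sets. Of 173 named genes past 1.5-fold, those measured kept their direction under all alternatives except Hbb-b2, and 150 (signals as deposited) to 173 (trimmed mean) of 173 were still past 1.5-fold in settings that kept all of them. With the filter on both arrays 122 were measured and 121 still past 1.5-fold. Replicates could not be left out, and no paired analysis was possible because each group has 1 array. The scatter between probe sets is the only error these arrays give, and dim signals near the array median limit the ratios of genes such as Slc15a2, Sema6c and Slc15a5.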

Other observations

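Cell cycle and iron genes showed isolated differences among few measured members. Of 6 genes of DNA replication and mitosis that passed the filter, Pttg1 was lower and Mcm2 higher. Pttg1 passed on the starved control array alone and Mcm2 on the starved knockout array alone, so the filter fixed both directions. With the filter on both starved arrays 4 genes were measured and none was higher or lower. Of 10 iron genes, the iron exporter Slc40a1 was lower in starved knockout muscle (791.5 in starved control and 427 in starved knockout) and Tfrc higher. In the zinc and metallothionein list of 14 genes, the importer Slc39a14 was at 234.6 and 77.7 in starved control and starved knockout muscle, and the exporter Slc30a2 at 105.6 and 220.5. Each of these probe sets passed the filter only on the array where it was high. With the filter on both starved arrays 11 genes of this list were measured, 1 was higher and none lower.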
